A study of Canis lupus familiaris with 12 samples.

Results

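miR-183, miR-96 and miR-182 are 3 miRNAs whose genes lie side by side and are made from a common primary transcript in mammals. They are described here in CHMm, a cell line from a canine mammary tumor, and in CHMmTAM, a TAM-resistant line derived from it. The members were taken by exact name (cfa-miR-183, cfa-miR-96 and cfa-miR-182) from a table of 453 canine miRNAs, and each was counted in all 6 libraries. They were chosen by their counts in these same libraries, because each was higher in CHMmTAM, so the differences between the lines are given as a description without a test.

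CHMm was isolated from the pleural effusion of a female dog with a mammary tumor. CHMmTAM was obtained by raising the concentration of tamoxifen (TAM), an estrogen receptor antagonist, over 10 months to 10 μM, followed by 1 month at 10 μM and 1 week without drug. Both lines were grown in phenol-red-free medium with steroid-depleted serum, and small RNA was sequenced in 3 libraries per line. The paper also lists hydroxytamoxifen in this medium. The paper does not state which line received this compound, or whether it was the TAM used for selection. All CHMmTAM libraries come from 1 resistant line, so resistance and other changes during the months of culture cannot be told apart, and the sources used here do not say whether that line is a clone or whether the 3 libraries are separate cultures. If they are not separate cultures, the spread given below is technical.

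An miRNA gene cluster of this kind is transcribed as a long primary RNA, from which Drosha and then Dicer cut each mature miRNA. The mature strands are loaded into Argonaute and repress mRNAs that pair with bases 2 to 8, the seed. miR-183, miR-96 and miR-182 have closely similar seeds and are best known from sensory cells of the eye and inner ear, where changes in the seed of miR-96 cause hearing loss. In breast cancer cells they are known as abundant miRNAs that repress, among others, the transcription factors FOXO1 and FOXO3. In the RefSeq genes of the dog assembly UU_Cfam_GSD_1.0, the genes follow each other in the order MIR183, MIR96, MIR182. All lie within the span of the lncRNA gene LOC102151305, with the protein-coding genes UBE2H before it and NRF1 after it.

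The libraries held 7512659 to 11450062 counts in CHMm and 8137736 to 12482211 counts in CHMmTAM. miR-21, a miRNA abundant in many tumors, took 50.9% ± 0.75 (SD, n = 3) of the counts in CHMm and 54% ± 0.39 in CHMmTAM. The epithelial markers miR-200a, miR-200b, miR-200c, miR-141, miR-429, miR-203 and miR-205 were all detected and summed to 24457 to 26852 CPM (counts relative to the library total) in CHMm and 21958 to 23739 CPM in CHMmTAM. The mesenchymal miRNAs miR-143, miR-145, miR-199 and miR-214 summed to at most 48.3 CPM in any library. The blood miRNAs miR-142, miR-223, miR-150, miR-451 and miR-144 summed to at most 8.49 CPM, and the endothelial miR-126 to at most 0.271 CPM with no count in CHMm. The muscle miRNAs miR-1, miR-133a, miR-133b and miR-206 summed to at most 7.05 CPM in CHMm and to between 29.3 and 29.6 CPM in CHMmTAM. At FDR below 0.05 (the adjusted p of edgeR's quasi-likelihood test), 0 of these 4 mesenchymal miRNAs were higher and 1 was lower in CHMmTAM. Of the tested blood miRNAs 1 of 3 was higher, and of the tested muscle miRNAs 3 of 3. Over all 284 tested miRNAs, 25.4% were higher and 18.7% lower at that FDR. The lists are not complete, and the sums hold for the named miRNAs only. Outside them, miR-140, which can also be counted as mesenchymal, rose from a mean of 262 to 530 CPM (scaled as described below). The muscle miRNAs miR-499 and miR-133c rose from 283 to 395 CPM and from 2.91 to 13.8 CPM, and all 3 were higher at that FDR. Each of these non-epithelial lists summed to far less than any of the 3 members in every library, and their part in the results below was not tested.

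All 3 members were higher in CHMmTAM than in CHMm, by 1.70-fold for miR-183, 1.65-fold for miR-96 and 1.56-fold for miR-182. Levels below are CPM scaled with edgeR's TMM factors, which correct each library for its composition. In bulk RNA, a change in every cell and a change in the share of cells with a high level cannot be told apart.

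miR-183, which is known to repress the cytoskeletal linker ezrin, had 60580, 96088 and 71952 reads in CHMm replicates 1, 2 and 3 and 179858, 150187 and 112363 reads in CHMmTAM. After scaling its level was 8284, 8273 and 8043 CPM in the CHMm libraries and 14080, 13616 and 14117 CPM in the CHMmTAM libraries. The lowest CHMmTAM library lay far above the highest CHMm library. The log2 fold change from edgeR was 0.77 (SE 0.06).

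miR-96, the member tied to hearing, had 81685, 130268 and 103753 reads in CHMm and 219252, 218022 and 152940 in CHMmTAM. Its level was 11169, 11215 and 11597 CPM in CHMm and 17164, 19766 and 19215 CPM in CHMmTAM. The lines did not overlap, and CHMmTAM replicate 1 was lower than the other 2 resistant libraries. The log2 fold change was 0.72 (SE 0.06), less than 1 SE below that of miR-183. Without CHMmTAM replicate 1 it was 0.81, above the 0.78 of miR-183.

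miR-182, which is known to repress FOXO3, had 97018, 145037 and 119228 reads in CHMm and 254791, 216433 and 168778 in CHMmTAM. Its level was 13266, 12487 and 13327 CPM in CHMm and 19947, 19621 and 21205 CPM in CHMmTAM. The lines again did not overlap. The log2 fold change was 0.64 (SE 0.06).

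**Figure D1:**
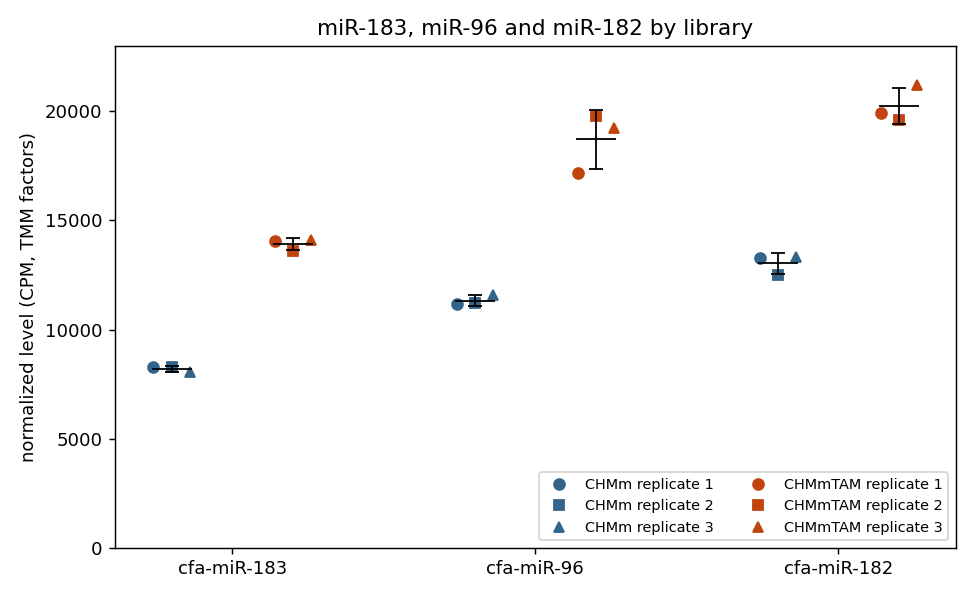
Levels of the 3 miRNAs in each library (CPM scaled by TMM factors, y axis from 0), with CHMm in blue and CHMmTAM in red; symbols mark the replicate number, horizontal bars the mean of 3 libraries and error bars the SD. For each miRNA the 3 CHMmTAM libraries lie above the 3 CHMm libraries, and the widest spread is that of miR-96 in CHMmTAM, from 17164 to 19766 CPM.

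The spread between replicates was small but larger than counting error. The coefficient of variation over 3 libraries was 1.66% for miR-183, 2.07% for miR-96 and 3.6% for miR-182 in CHMm, and 2.01%, 7.32% and 4.13% in CHMmTAM. Counting alone gives at most 0.406% for any of the 3 miRNAs in any library. The depth therefore does not limit these values, and the differences between the lines were several times the SD within either line.

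As a share of all counts, the 3 members together took 3.19%, 3.24% and 3.35% in CHMm and 5.24%, 5.28% and 5.33% in CHMmTAM. The 95% Wilson intervals of these shares, which cover counting error only, were at most from 3.33% to 3.36% in CHMm and at least from 5.23% to 5.25% in CHMmTAM. The gain was 2.03 percentage points. When miR-21 was left out of the total, the share was 6.64% ± 0.159 (SD, n = 3) in CHMm and 11.5% ± 0.202 in CHMmTAM. Of all 453 miRNAs, miR-21 gained the largest share of counts, 3.11 points. miR-96 and miR-182 followed with 0.735 and 0.72 points, and miR-183 ranked 5 with 0.572 points, after let-7g at 0.662. The largest losses were those of miR-221 and miR-222, at -1.31 and -1.19 points. Shares sum to a fixed total, so gains and losses depend on each other.

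The order of the members was miR-182, miR-96, miR-183 by mean level in both lines. In CHMm they ranked 15, 19 and 20 among the 284 tested miRNAs, and in CHMmTAM 8, 9 and 11. No length correction was used, since mature miRNAs are alike in length, but the efficiency of library preparation differs between miRNAs and limits such comparisons of level. In CHMm, the ranges of the 3 members did not overlap each other. miR-182 overlapped the epithelial miR-200c next below it, at 12807 ± 504 CPM (SD, n = 3), and lay below miR-29a at 14125 ± 502 CPM. miR-96 overlapped miR-26a next above it, at 12138 ± 721 CPM, although miR-26a was higher within each library. miR-183 lay above miR-92a, at 7117 ± 370 CPM. In CHMmTAM, miR-182 and miR-96 overlapped, and miR-96 was the higher of the pair in replicate 2. There miR-182 overlapped miR-27a next above it, at 21723 ± 2017 CPM, miR-96 overlapped miR-148a at 15892 ± 1130 CPM, and miR-183 lay below miR-148a and overlapped miR-125b at 13459 ± 681 CPM.

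The members share a primary transcript, so their ratios within a library, which need no scaling between libraries, show whether they moved by the same factor. The counts of miR-183 over those of miR-182 gave ratios of 0.624, 0.663 and 0.603 in CHMm and 0.706, 0.694 and 0.666 in CHMmTAM. All 3 CHMmTAM ratios were above all 3 CHMm ratios, but CHMmTAM replicate 3 and CHMm replicate 2 were nearly equal. The mean difference was 0.13 on the log2 scale, with an SD of 0.07 between CHMm libraries and 0.04 between CHMmTAM libraries.

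The ratio of miR-96 to miR-182 was 0.842, 0.898 and 0.87 in CHMm and 0.861, 1.01 and 0.906 in CHMmTAM. The lines overlapped, and the mean difference was 0.09 on the log2 scale. It rested on single libraries, with 0.02 without CHMmTAM replicate 2 and 0.14 without CHMmTAM replicate 1. The ratio of miR-183 to miR-96 was 0.742, 0.738 and 0.693 in CHMm and 0.82, 0.689 and 0.735 in CHMmTAM. It also overlapped, with a mean difference of 0.04 on the log2 scale, and CHMmTAM replicate 1 set its direction: without that library the difference was -0.025, and it was 0.10 without CHMmTAM replicate 2 and 0.01 without CHMm replicate 3. The 3 ratios differed between the lines by far less than the levels did.

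**Figure D2:**
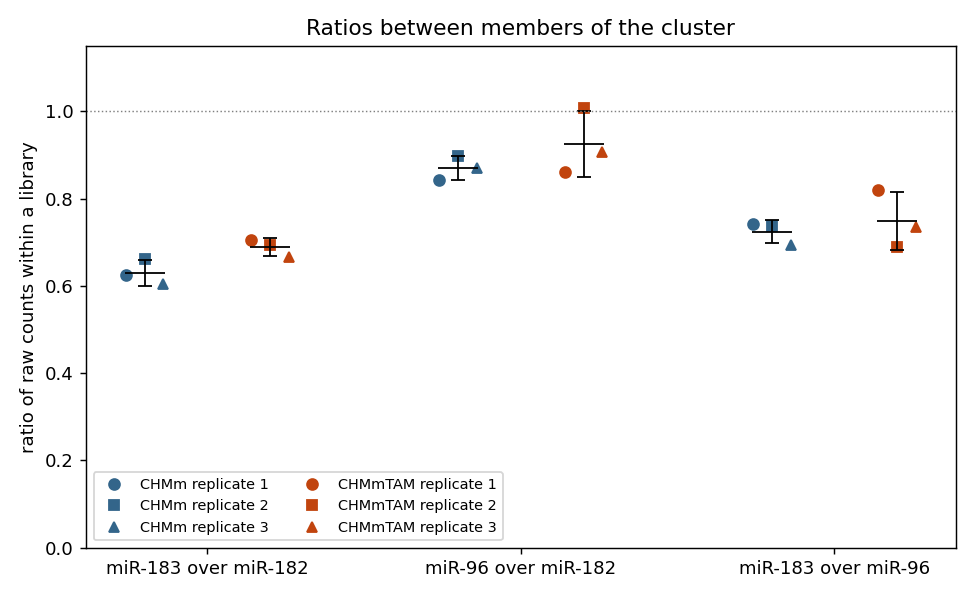
Ratios of raw counts between pairs of members within each library (y axis from 0, dotted line at equal counts), with CHMm in blue, CHMmTAM in red, horizontal bars for the mean of 3 libraries and error bars for the SD. The miR-183 to miR-182 ratios lie between 0.603 and 0.663 in CHMm and between 0.666 and 0.706 in CHMmTAM, while the other 2 ratios overlap between the lines.

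Of the reads of the 3 members together, miR-182 held 40% ± 0.83 (SD, n = 3) in CHMm and 38.3% ± 1.1 in CHMmTAM, miR-96 34.8% ± 0.574 and 35.4% ± 1.88, and miR-183 25.2% ± 0.746 and 26.4% ± 0.997. The makeup of the cluster thus shifted by at most 1.72 percentage points, away from miR-182, while its share of all counts was 1.62 times as high.

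The members were set against all tested miRNAs in the edgeR fit. 32 miRNAs, or 11.3%, passed the study's thresholds of FDR below 0.05 and a log2 fold change beyond 1 in either direction, 17 of them higher and 15 lower in CHMmTAM. Under upper-quartile scaling the split was 12 higher and 22 lower. Of the 3 members 0 passed both thresholds, since each differed by less than 2-fold. At FDR below 0.05 alone, 25.4% of the tested miRNAs were higher and 18.7% lower in CHMmTAM, and the CHMmTAM libraries were all above the CHMm libraries for 28.9%. All 3 members were higher at that FDR and did not overlap, which their choice fixes, so nothing is read from these counts. Over all 284 tested miRNAs the log2 fold change had a median of 0.06, so miR-183 lay 0.71, miR-96 0.66 and miR-182 0.58 above it. Upper-quartile scaling moved that median to -0.18 and all log2 fold changes with it by nearly the same amount.

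Larger increases than that of miR-183 were found for 36 tested miRNAs, most of them rare. Among the 157 miRNAs with a mean of at least 100 counts per library, 9 increased more than miR-183. The 11 that increased more than miR-182 are the same 9 with miR-183 and miR-96. These counts describe where the chosen members stand and support nothing further. Among other abundant miRNAs, let-7g had a log2 fold change of 0.23 (SE 0.06), and miR-24 and miR-21 were at 0.09 each, with overlap between the lines. miR-221 was at -1.52 and miR-222 at -1.36.

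**Figure D3:**
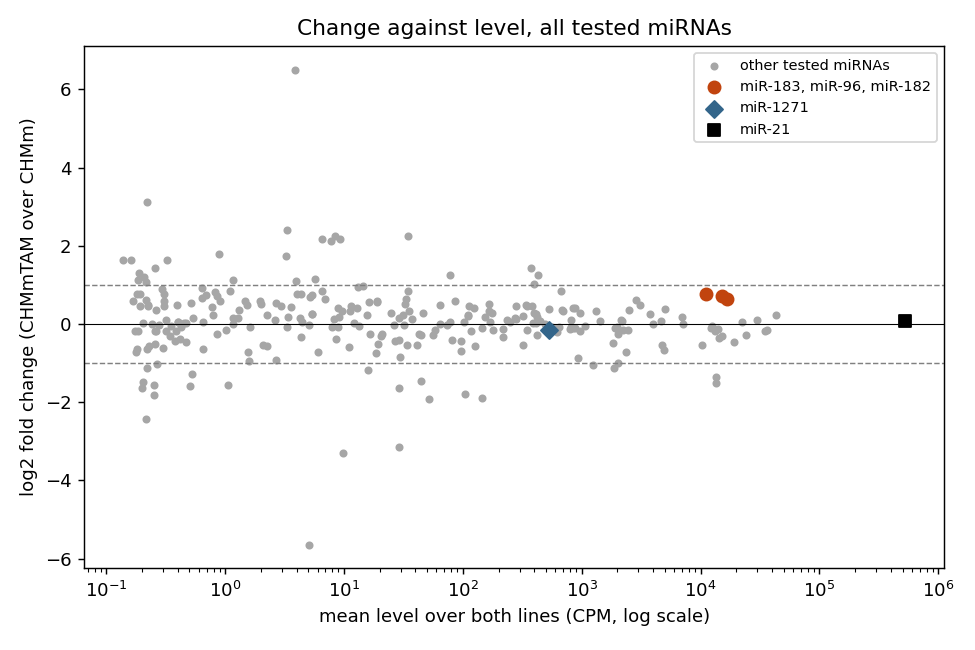
Log2 fold change (CHMmTAM over CHMm, y axis) against the mean level over both lines (CPM, log-scaled x axis) for the 284 tested miRNAs, each point being 1 miRNA and dashed lines marking a log2 fold change of 1 and -1. The 3 members, in red and chosen for being higher in CHMmTAM, lie at 0.77, 0.72 and 0.64, while miR-1271 lies at -0.15 and miR-21 at 0.09.

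miR-1271 is known to carry the same seed as miR-96 but is encoded elsewhere in the genome, and it was compared for that reason. It had 535, 569 and 577 CPM in CHMm and 512, 506 and 500 CPM in CHMmTAM. The CHMmTAM libraries were the lower ones. Its log2 fold change was -0.15 (SE 0.07), and its adjusted p 0.0783 (edgeR quasi-likelihood test); it was lower at FDR below 0.05 in 3 of the 6 scalings tried, with DESeq2, and without CHMm replicate 1. miR-96 was 20.9, 19.7 and 20.1 times as abundant as miR-1271 in CHMm and 33.5, 39 and 38.4 times in CHMmTAM. Of the reads of this pair, nearly all came from miR-96 in both lines.

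Of the nearest miRNA genes on the same chromosome, the measured ones were level or lower in CHMmTAM, apart from a rare one. miR-29a, which is known to repress collagens and lies on the MIR183 side, fell from 14125 ± 502 to 12571 ± 351 CPM (SD, n = 3), a log2 fold change of -0.17 with an adjusted p of 0.0196 from edgeR's quasi-likelihood test. This call was lost without CHMm replicate 1 (edgeR adjusted p = 0.0729), without CHMm replicate 2 (0.0527) or without CHMmTAM replicate 1 (0.151), while the value stayed negative, at -0.12 or below. The counts of the 3 members over those of miR-29a were 2.23, 2.29 and 2.40 in CHMm and 4.20, 4.18 and 4.24 in CHMmTAM. miR-29b, which has a second gene elsewhere, was at -0.12 with an adjusted p of 0.147 and was lower at FDR below 0.05 in 3 of the 6 scalings, and the rare miR-335 at -0.08 with an adjusted p of 0.859, both from the same edgeR quasi-likelihood test. On the MIR182 side, miR-129, which also has a second gene, had 0, 1 and 0 reads in CHMm and 6, 3 and 4 in CHMmTAM, with an edgeR adjusted p of 0.0238 that became 0.0854 without CHMm replicate 3. miR-592 and miR-653 on that side were too rare to be tested. Of the 4 neighbours tested, 1 was higher and 1 lower at FDR below 0.05, beside 25.4% higher and 18.7% lower over all tested miRNAs. The median log2 fold change of the neighbours was -0.10 against 0.06 for all tested miRNAs.

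The members were also compared with other miRNAs of common transcripts. Genes no more than 10 kb apart formed 18 clusters with at least 2 miRNAs that have a single gene each and a mean of at least 100 counts per library. The gene table gives no strand, so neighbours on opposite strands would be joined. The log2 fold changes of miR-183, miR-96 and miR-182 spanned 0.13, which is about 2 standard errors of a single value. The median span of the 18 clusters was 0.16. Of the 18 clusters, 5 had a narrower span, all of them pairs. Of the 7 clusters with 3 or more such miRNAs, 0 had a narrower span, although that of miR-125a, let-7e and miR-99b was close at 0.14. A span grows with the number of miRNAs and with the error of rare ones, such as miR-188 (SE 0.13 against 0.06 for each member). The spans of clusters that differ in size and level are therefore not directly comparable. The widest was 0.77, in the cluster of miR-532, miR-188, miR-500, miR-362 and miR-502, and the narrowest 0.0083, in the pair miR-181d and miR-181c. At FDR below 0.05 all such miRNAs were higher in 3 clusters. These are the members, by their choice, miR-200b with miR-200a and miR-429, and miR-191 with miR-425. The call of miR-200b held in only 2 of the 6 scalings. All were lower in 3 others, namely miR-125a with let-7e and miR-99b, miR-221 with miR-222, and miR-195 with miR-497. Over all tested miRNAs, 25.4% were higher and 18.7% lower at that FDR.

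**Figure D4:**
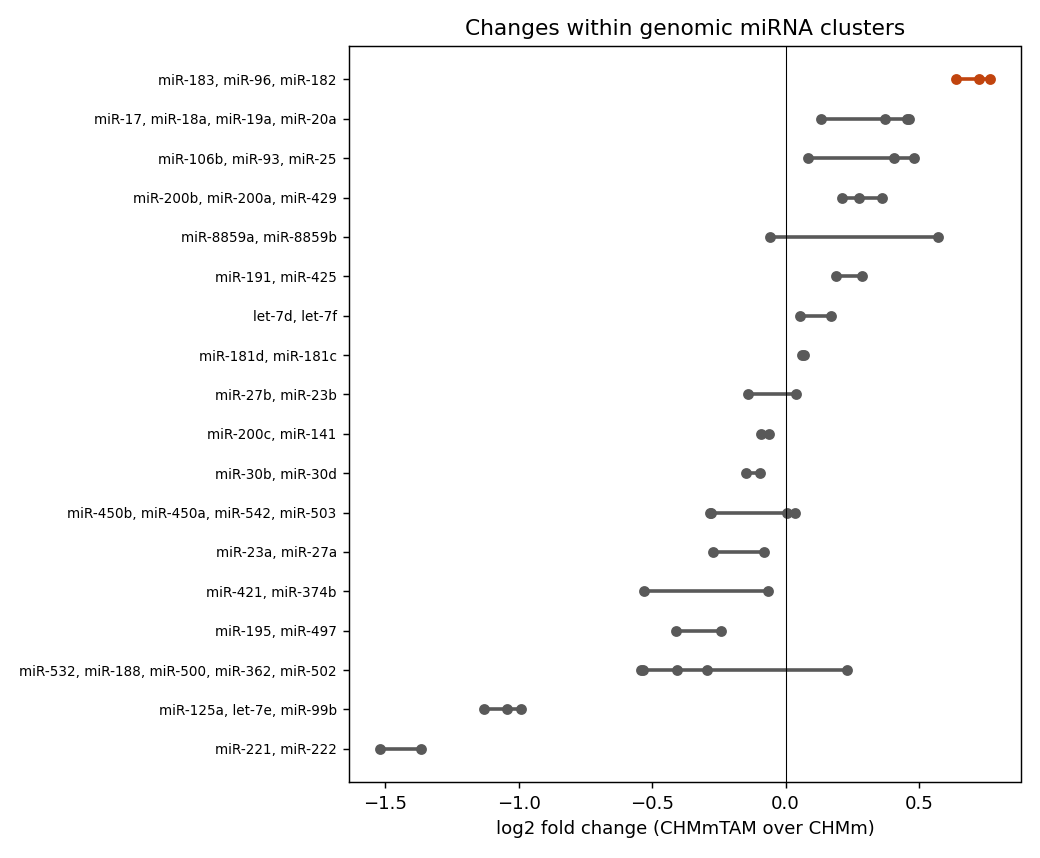
Log2 fold change (CHMmTAM over CHMm, x axis) of each miRNA in the 18 genomic clusters, ordered by the median of the cluster, with points for single miRNAs and lines from the lowest to the highest. The 3 members, in red, span 0.64 to 0.77, and the span of miR-532, miR-188, miR-500, miR-362 and miR-502 is the widest at 0.77.

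Among epithelial miRNAs, miR-183 is known to be held down together with the miR-200 family and miR-203 by the EMT factor ZEB1. The list used here also held miR-205. Of its 7 miRNAs, 3 were higher and 2 lower in CHMmTAM at FDR below 0.05, and 2 did not pass. Their median log2 fold change was -0.06 against 0.06 for all tested miRNAs, of which 25.4% were higher and 18.7% lower. The split within the list depended on the scaling. Under upper-quartile scaling 0 of the 7 were higher and 4 lower, with miR-200c and miR-141 then among the lower ones. miR-429 rose from 2187 ± 131 to 2811 ± 38.1 CPM (SD, n = 3), and miR-200a from 359 ± 29.5 to 435 ± 43.3 CPM, log2 fold changes of 0.36 and 0.27. Both passed in 5 of the 6 scalings, and the call of miR-200a was lost without CHMm replicate 1 (edgeR adjusted p = 0.0539) or without CHMmTAM replicate 2 (0.0503). miR-200b was at 0.21 and passed in 2 of the 6 scalings, with its sign turned under upper-quartile scaling (-0.03), and it did not pass without CHMm replicate 1 or without CHMmTAM replicate 2 (edgeR adjusted p = 0.182 and 0.128). miR-205, a miRNA of basal epithelium, fell by 0.66 on the log2 scale, from between 5848 and 6124 CPM in CHMm to between 3728 and 3846 CPM in CHMmTAM, and miR-203 fell by 0.24 on that scale. miR-200c, the most abundant of them, was at -0.06 (edgeR adjusted p = 0.461), and its cluster partner miR-141 at -0.09 (edgeR adjusted p = 0.266). The counts of the 3 members over those of miR-200c were 2.64, 2.39 and 2.61 in CHMm and 4.11, 4.26 and 4.58 in CHMmTAM, without overlap.

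Of 9 tested other miRNAs known to repress FOXO1 or FOXO3, 1 was higher and 2 lower in CHMmTAM at FDR below 0.05 and 6 did not pass. Their median log2 fold change was 0.06, as for all tested miRNAs, of which 25.4% were higher and 18.7% lower. Under upper-quartile scaling 0 of these 9 were higher and 4 lower, with miR-9 and miR-135b among the lower ones. miR-135b was lower in 3 of the 6 scalings. miR-27a, which is known to repress FOXO1 together with miR-96 and miR-182 in breast cancer cells, fell by 0.27 on the log2 scale, from 26213 ± 2907 to 21723 ± 2017 CPM (SD, n = 3), and its libraries overlapped between the lines. That call was lost without CHMm replicate 2 (edgeR adjusted p = 0.0838). miR-155, an inflammatory miRNA known to repress FOXO3, fell by 0.73 on the log2 scale, from 2957 ± 122 to 1787 ± 62.5 CPM. miR-132 rose from 7.63 ± 1.2 to 10.1 ± 0.601 CPM, with an adjusted p of 0.0331 from edgeR's quasi-likelihood test that held in 3 of the 6 scalings but not without CHMm replicate 3 (0.229) or without CHMmTAM replicate 1 (0.0987). miR-9, at more than 1000 CPM in both lines, was at -0.06 with an adjusted p of 0.5 from the same edgeR test.

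Of 6 tested miRNAs known from the eye and inner ear besides the members, 2 were higher and 3 lower in CHMmTAM at FDR below 0.05, and miR-9 did not pass. Their median log2 fold change was -0.20 against 0.06 for all tested miRNAs, of which 25.4% were higher and 18.7% lower. miR-181a rose from 251 ± 7.47 to 601 ± 24.7 CPM (SD, n = 3) and miR-181b from 484 ± 21.8 to 866 ± 57.6 CPM, log2 fold changes of 1.26 and 0.84. miR-184, known from the cornea and lens, fell from 52.7 ± 1.87 to 5.92 ± 1.04 CPM, and miR-204, known from the retinal pigment epithelium, had 69, 119 and 92 reads in CHMm and 2, 3 and 1 in CHMmTAM. miR-7 fell by 0.35 on the log2 scale, from 15919 ± 276 to 12518 ± 1602 CPM.

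The miRNAs whose pattern over the 6 libraries was most like the mean pattern of the members were miR-103, miR-181b, miR-1839, miR-345 and miR-8859b, out of 154 compared. Likeness was taken as the root mean square difference of log2 CPM centred on the mean of the CHMm libraries, and it was 0.09, 0.11, 0.11, 0.13 and 0.16 in this order. The members themselves differed from their own mean pattern by 0.05 to 0.06. miR-103, known for its part in metabolism, had a log2 fold change of 0.60 and was the most abundant of the 5, at 2267 CPM in CHMm and 3442 CPM in CHMmTAM. The 3 members together had 14.4, 14.3 and 14.4 times the counts of miR-103 in CHMm and 16.3, 14.5 and 15.4 times in CHMmTAM. The ranges did not overlap, but CHMmTAM replicate 2 and CHMm replicate 3 were nearly equal. The choice of miR-103 for its similar pattern keeps this ratio close. miR-1839, miR-345 and miR-8859b were rare, at 68.2, 13.2 and 15.4 CPM in CHMm. With only 2 lines the measure mainly reflects the size of the difference between them.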

How the data were processed

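The values used are raw counts for each named canine miRNA, deposited by the authors without normalization. Small RNA was purified from total RNA and sequenced on a HiSeq instrument. The submitters' processing notes name the build CanFam3.1, HISAT2 2.0.4 and BWA for the whole series, without a role. The trimming, the miRNA database and the rule for reads matching more than 1 miRNA are not given in the sources used here. Such rules can shift reads among miRNAs of similar sequence, and whether this touched the members or miR-1271 was not tested. The RNA-seq libraries were not analysed here. Mature sequences were not analysed here, so the seed relative was named from background knowledge.

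Libraries were assigned to lines from their titles. miRNAs with at least 10 counts in total were kept, TMM factors were computed, and the lines were compared with the quasi-likelihood test of edgeR 4.0.16 in R 4.3.3 with Benjamini-Hochberg adjustment over 284 miRNAs (FDR). Standard errors were derived from each coefficient with its F statistic. The fit was tested on simulated data. CPM use TMM factors except where the library total is named. Any pair of libraries from the same line differed beyond counting error (chi-square over its degrees of freedom, 26.3 to 85.8), and all 6 were kept. An exact permutation test of 3 against 3 cannot give p below 0.1, and none is reported. Names were matched to RefSeq genes for 281 of the 284 tested miRNAs, 249 of them to a single gene. Its build differs from that of the files, so no coordinates are given.

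The members and lists were chosen with earlier results of these data known. The named miRNAs are the members, their neighbours by gene and by level, the seed relative, members of the epithelial, FOXO and sensory lists that passed FDR or exceeded 1000 CPM, the 5 miRNAs of most similar pattern, the extremes of the cluster spans, and miR-21. Ratios to miR-1271, miR-29a, miR-200c and miR-103 and the values of let-7g, miR-24, miR-221, miR-222, miR-135b and further clusters were added after the values were seen. The values of miR-140, miR-499 and miR-133c were added in the same way. Alternatives were other scalings (RLE, upper quartile, totals only, and scaling without miR-21 or without the 10 most abundant miRNAs), other filters, DESeq2 1.42.0, limma-voom (limma 3.58.1), a replicate block and leaving out each library. Python 3.11.15 with pandas 2.3.3, NumPy 2.4.6 and SciPy 1.17.1 was used for the rest.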

Additional observations from a re-analysis of the deposited data

How the results depend on the processing

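The log2 fold changes of the 3 members were positive in each of the 16 alternatives. Their size moved with the scaling, most under upper-quartile factors. It moved little with library totals only, which gave 0.76, 0.72 and 0.63 for miR-183, miR-96 and miR-182. Scaling without miR-21 gave 0.75, 0.71 and 0.62 in the same order. RLE factors gave 0.70 for miR-183 and 0.58 for miR-182, upper-quartile factors 0.52, 0.48 and 0.40 for miR-183, miR-96 and miR-182, scaling without the 10 most abundant miRNAs 0.71 for miR-183 and 0.58 for miR-182, and DESeq2 0.70 and 0.58 for the same pair. edgeR's default filter gave 0.80 for miR-183. The cause of these shifts was not tested. Without each library in turn, the values ranged from 0.75 to 0.78 for miR-183, from 0.68 to 0.81 for miR-96 and from 0.62 to 0.67 for miR-182, the highest for miR-96 being that without CHMmTAM replicate 1.

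The difference in the miR-183 to miR-96 ratio ranged from -0.025, without CHMmTAM replicate 1, to 0.10 and so changed sign. Those of miR-183 to miR-182 and miR-96 to miR-182 ranged from 0.10 to 0.17 and from 0.02 to 0.14. The gain in share was 4.86 points with counts outside miR-21 as the total. Without the fold-change threshold, 125 miRNAs passed in place of 32, and the counts under the other alternatives, including those in the fixed lists, stayed within 1.5 times the main count. In the fixed lists, 20 miRNAs passed FDR below 0.05, 11 higher and 9 lower in CHMmTAM. The numbers tested are given with the lists above, and over all tested miRNAs 25.4% were higher and 18.7% lower. Within the lists the split was 9 and 13 with RLE factors and 6 and 16 with upper-quartile factors. It was 9 and 12 without the 10 most abundant miRNAs, and 8 and 12 with DESeq2. Leaving out single libraries gave 17 to 20 such miRNAs.

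A fit with a block for the replicate number left 31 miRNAs beyond both thresholds, with the members at 0.77, 0.72 and 0.64. Deviations of same-numbered libraries had correlations of 0.06, 0.46 and -0.31 for replicates 1, 2 and 3 over 117 miRNAs above 50 CPM. With 3 libraries per line, these values cannot decide whether same-numbered libraries share a culture or batch. The labels state no pairing.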
